A study of Mus musculus with 20 samples.

Results

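The genes described here are 36 members of the cholesterol and fatty acid synthesis pathways, taken by gene symbol from a list of enzymes and regulators, out of 55642 genes quantified. They form a sterol branch of 23 genes and a fatty acid branch of 13 genes. All 36 symbols were found. In both organs 35 of them had enough reads to be tested, 23 in the sterol branch and 12 in the fatty acid branch. The exception was Pnpla3, a lipid droplet acylhydrolase, which had between 0 and 5 reads in every library.

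Male DBA/2J mice received JQ1, an inhibitor of the BET family of chromatin readers, by daily intraperitoneal injection, and bulk RNA of frozen liver and kidney was sequenced. There were 20 libraries, 10 from each organ. JQ1 treatment libraries (n = 3 per organ) came from mice aged 10 weeks at the end of 3 weeks of dosing at 50 mg/kg. JQ1 recovery libraries (n = 3 per organ) came from mice aged 16 weeks that had received the same course and were then left to recover. The sources differ on the length of this interval, given as 6 weeks for the main design, which is also the difference between the labelled ages, and as 3 weeks for the RNA experiment. The controls were vehicle libraries, 3 per organ from the treatment cohort aged 10 weeks and 1 per organ from the recovery cohort aged 16 weeks, so that 4 controls per organ entered each comparison. The labels name no engineered allele. The labels do not say whether each library is a separate mouse or which liver and kidney came from the same mouse, and p-values therefore measure the spread between these libraries. Because bulk RNA was measured, fewer cells of a type and less RNA per cell cannot be told apart.

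Cholesterol is built from acetyl-CoA through mevalonate, isoprenyl diphosphates, squalene and lanosterol, while fatty acids are built from the same acetyl-CoA through malonyl-CoA and then elongated and desaturated. When membrane sterol is low, SCAP carries the SREBP transcription factors to the Golgi for release, and INSIG proteins hold the complex back when sterol is plentiful. SREBP2, from Srebf2, acts mainly on sterol genes, and SREBP1, from Srebf1, mainly on fatty acid genes. The liver is the main site of both pathways in the mouse, and adipose tissue also makes fatty acids.

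Assigned reads per library ran from 13952510 to 26895318 in kidney and from 11968500 to 17529910 in liver. Values per library are counts relative to library size (CPM), scaled by the trimmed mean of M-values (TMM) within an organ, and fold changes are log2 values from edgeR with their standard error (SE). A gene was called at a Benjamini-Hochberg adjusted p below 0.05 over all genes tested. Defining hepatocyte transcripts were at most 0.0963% of their control liver level in every kidney library, taken as the median over 12 markers. The reverse did not hold in liver. In JQ1 recovery libraries 2 and 3 the median kidney epithelial marker stood at 33.4% and 12.8% of its control kidney level, against 0.0360% in JQ1 recovery library 1 and at most 0.0181% in the other 7 liver libraries. Liver recovery results for the members are therefore given with and without those libraries. In kidney, summed transcripts of 14 adipocyte markers ran from 106 to 801 CPM in JQ1 treatment, from 107.5 to 111 CPM in JQ1 recovery and from 146.5 to 453 CPM in controls. Sums of 11 adrenal cortex markers, 4 to 7 of them at 0 in each kidney library, were 84.9 to 95.5 CPM (without TMM) in JQ1 treatment, 96.3 to 100.3 CPM in JQ1 recovery and 91.1 to 106 CPM in controls, so that JQ1 treatment lay below JQ1 recovery and both overlapped the controls. Their part in the results was not tested.

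Control levels were compared between the organs first. On the TMM scale all 23 tested sterol genes were above 0 in control liver relative to control kidney, and 21 of them were called higher. In the fatty acid branch 11 of 12 were called higher and 1, Me1, was called lower. Over all genes 61.8% were called, 29.6% higher and 32.1% lower, so the members lay mostly on one side. The direction depended on scaling for some genes: without TMM the median of all genes moved to -0.91, and Mvd, Cyp51, Nsdhl and Srebf2 then had negative differences. Mvd was called higher with TMM (0.43, adjusted p = 0.0344) and lower without it (-0.42, adjusted p = 0.0339), and Nsdhl was called with TMM (0.79) and not without it (-0.06, adjusted p = 0.60). In TPM, a level scaled to library size and transcript length, 13 of 23 sterol genes and 10 of 12 fatty acid genes had the higher mean in liver.

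On the TMM scale the largest log2 differences in the sterol branch were 5.65 for Sc5d, 4.125 for Insig2, 3.90 for Fdps and 3.70 for Insig1. Sc5d, lathosterol oxidase, averaged 53.3 ± 12.5 TPM in control liver and 2.86 ± 0.60 TPM in control kidney (SD, n = 4 each). Insig2, one of the proteins that hold SCAP in the endoplasmic reticulum, averaged 73.4 ± 10.8 TPM in control liver and 10.7 ± 0.96 TPM in control kidney (SD, n = 4 each). Fdps, farnesyl diphosphate synthase, averaged 69.5 ± 4.1 TPM in control liver and 13.1 ± 3.7 TPM in control kidney. By the gene sum, Ebp, the sterol isomerase, was highest in the branch in liver at 143 ± 5.8 TPM, and Hmgcs1, the cytosolic HMG-CoA synthase, was highest in kidney at 72.3 ± 9.9 TPM with Ebp next at 64.7 ± 3.8 TPM. Nearly all of the Ebp sum was assigned to a retained-intron transcript. Its protein-coding transcripts held 5.70% of the sum in control liver (6.33 to 9.29 TPM) and 2.66% in control kidney (0 to 3.14 TPM). Counting protein-coding transcripts alone, Insig2 was highest in liver at 73.4 ± 10.8 TPM and Hmgcs1 in kidney at 69.2 ± 10.1 TPM. The regulators ranged widely: Srebf2 summed to 3.18 ± 0.72 TPM in control liver and 8.78 ± 0.68 TPM in control kidney, of which 11.3% and 9.02% lay on protein-coding transcripts.

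In the fatty acid branch, Scd1, the stearoyl-CoA desaturase, led in control liver at 164 ± 56.6 TPM, and averaged 19.2 ± 16.7 TPM in control kidney. Elovl5, an elongase of polyunsaturated fatty acids, followed at 109 ± 11.6 TPM in control liver and 14.9 ± 2.1 TPM in control kidney. The Scd1 and Elovl5 ranges overlapped in liver (92.6 to 230.5 and 101 to 126 TPM). Me1, the cytosolic malic enzyme that supplies NADPH, ran the other way on all 3 scales, at 21.7 ± 7.2 TPM in control liver and 89.7 ± 9.5 TPM in control kidney. Srebf1 averaged 13.4 ± 2.5 TPM in control liver and 3.85 ± 0.61 TPM in control kidney.

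**Figure D1:**
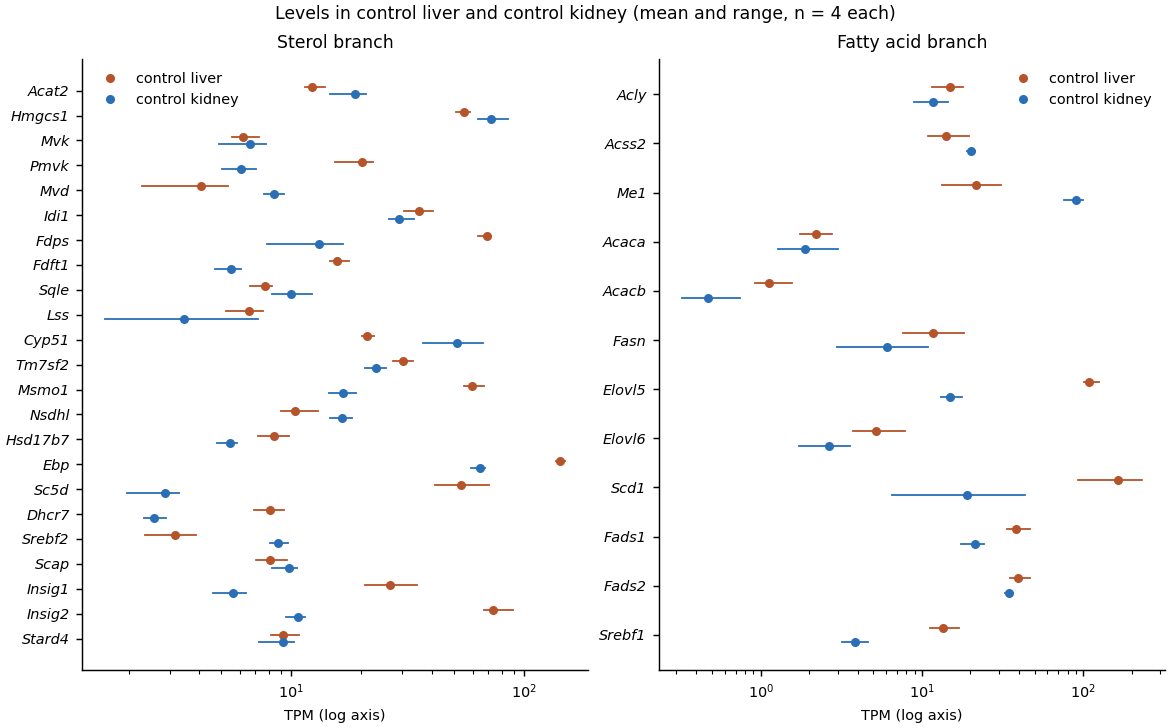
Level of each tested member in control liver and control kidney, in TPM on a log axis, with the sterol branch left and the fatty acid branch right. Points are means and lines are the range over 4 libraries per organ. Sc5d, Insig2, Elovl5 and Scd1 stand farther right in liver, and Me1 stands farther right in kidney at 89.7 TPM.

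JQ1 treatment against control in kidney asked which of these genes differed at the end of dosing. 3 members passed the test and they did not share a direction. Acat2, the cytosolic acetoacetyl-CoA thiolase at the entry to the mevalonate pathway, was higher, Idi1, the isopentenyl diphosphate isomerase in its middle, was lower, and Fads2, the delta-6 desaturase, was lower. That is 2 of 23 tested sterol genes and 1 of 12 tested fatty acid genes, against 4.13% of all 17158 genes tested in kidney (1.4% higher and 2.73% lower).

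Idi1 converts the first isoprenyl unit into the form that starts chain growth. In kidney it had 68.1, 52.4 and 64.9 CPM in JQ1 treatment, 100.5, 97.4 and 128 CPM in JQ1 recovery, and 125, 114 and 97.0 CPM in vehicle libraries of the treatment cohort with 98.4 CPM in the vehicle recovery library. All 3 treated kidneys lay below all 7 other kidneys. The log2 change of JQ1 treatment against control was -0.81 ± 0.12 (SE, edgeR adjusted p = 0.00193, lower in 3 of 3 libraries), a fold of 0.569. It was called in all 7 fits that left out 1 library of the compared groups (highest adjusted p 0.0103) and in all 8 other settings.

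Acat2 had 71.6, 70.7 and 81.8 CPM in JQ1 treatment kidneys and 55.1, 66.5 and 60.0 CPM in JQ1 recovery kidneys, against 55.4, 40.2 and 49.1 CPM in vehicle kidneys of the treatment cohort and 55.8 CPM in the vehicle recovery kidney. The treated libraries lay above all others. Its log2 change was 0.57 ± 0.10 (SE, edgeR adjusted p = 0.00342, higher in 3 of 3 libraries), a fold of 1.49, and the call held in all 7 leave-one-out fits and all 8 other settings. Acat2 is uncertain in 1 respect. Its summed estimate was not whole (beyond 0.01 of a read) in 20 of 20 libraries, as happens when reads are divided with another gene, and Acat3 is a near-identical copy. Acat3 had 13.98, 14.01 and 18.8 CPM in JQ1 treatment kidneys, 12.4, 20.5 and 12.3 CPM in JQ1 recovery kidneys and 7.13 to 13.1 CPM in controls, with a log2 change of 0.61 ± 0.22 that missed the threshold (adjusted p = 0.17). How the reads of these copies were divided was not tested. Non-whole sums were not limited to Acat2, and 8 members had them in at least 10 libraries. Among these were Idi1 (15 of 20 libraries), Me1 (20 of 20), Fdps (19 of 20) and Hmgcs1 (19 of 20). Which genes shared reads with them was not tested.

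Fads2, which starts the synthesis of long polyunsaturated fatty acids, had 112, 101 and 109.6 CPM in JQ1 treatment kidneys and 143, 136 and 127 CPM in JQ1 recovery kidneys, against 143, 129.9 and 139 CPM in vehicle kidneys of the treatment cohort and 132 CPM in the vehicle recovery kidney. The treated libraries again lay apart from the 7 others. The change was smaller in size than those of Idi1 and Acat2, at -0.34 ± 0.07 (SE, edgeR adjusted p = 0.00766, lower in 3 of 3 libraries), a fold of 0.793. Fads1, the delta-5 desaturase that acts after it, did not pass the test (-0.04 ± 0.11, adjusted p = 0.89).

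The promoters of these 3 genes are shown because the genes differed in kidney, together with that of Hmgcs1, whose promoter alone among the members with a window holds an SRE-like match. Each run is the 250 bases before the RefSeq start on the gene's strand (GRCm38.p6), and RefSeq windows were matched for 30 of the 36 members. Capitals mark matches, on either strand, to a CCAAT box (CCAAT), a GC box (GGGCGG) and the SRE-like motif TCACNCCAC; no match overlapped a match to another motif.

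Idi1 (chr13:8885356-8885605, plus strand): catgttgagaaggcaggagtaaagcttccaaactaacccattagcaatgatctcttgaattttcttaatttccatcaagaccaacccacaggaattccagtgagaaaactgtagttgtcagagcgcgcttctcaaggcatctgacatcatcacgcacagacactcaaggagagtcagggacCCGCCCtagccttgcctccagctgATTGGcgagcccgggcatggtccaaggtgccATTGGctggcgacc
Acat2 (chr17:12960726-12960975, minus strand): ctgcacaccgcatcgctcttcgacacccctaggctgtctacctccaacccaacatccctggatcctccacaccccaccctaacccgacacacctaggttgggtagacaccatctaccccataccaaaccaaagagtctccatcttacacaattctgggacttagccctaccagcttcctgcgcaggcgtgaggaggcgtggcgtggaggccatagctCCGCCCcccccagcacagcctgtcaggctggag
Fads2 (chr19:10101504-10101753, minus strand): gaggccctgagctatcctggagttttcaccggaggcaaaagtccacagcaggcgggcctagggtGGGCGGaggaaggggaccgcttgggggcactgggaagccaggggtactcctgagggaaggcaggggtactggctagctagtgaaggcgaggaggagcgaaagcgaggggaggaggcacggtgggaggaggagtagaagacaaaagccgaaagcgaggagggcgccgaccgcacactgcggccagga
Hmgcs1 (chr13:119690101-119690350, plus strand): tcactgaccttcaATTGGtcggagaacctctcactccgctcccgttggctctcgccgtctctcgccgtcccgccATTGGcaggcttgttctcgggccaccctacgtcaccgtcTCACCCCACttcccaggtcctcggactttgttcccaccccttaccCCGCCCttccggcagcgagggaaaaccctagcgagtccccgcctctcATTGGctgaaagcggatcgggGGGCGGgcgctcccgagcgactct

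In these windows Idi1 had 2 CCAAT boxes and 1 GC box, Acat2 and Fads2 had 1 GC box each, and Hmgcs1 had 3 CCAAT boxes, 2 GC boxes and 1 SRE-like match. Among members with a window, 24 of 30 (80%) held a CCAAT box and 24 of 30 (80%) held a GC box, against 33.8% and 32.7% of all 32851 promoter windows of the same length. The SRE-like letters were in 1 of 30 member windows and in 1.05% of all windows. These matches describe the letters alone.

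The other members in kidney stayed under the threshold. 6 of 23 sterol genes and 2 of 12 fatty acid genes had an unadjusted p below 0.05, where 17.1% of all genes did. The sterol branch had 10 genes above 0 and 13 below, with a median log2 change of -0.07, and the fatty acid branch had 6 above and 6 below, with a median of 0.02. Over all genes 48.9% lay above 0 and the median was -0.01. Without TMM all values moved down together (median of all genes -0.10) and 20 of 23 sterol genes lay below 0. The enzymes on either side of Idi1 gave -0.22 ± 0.12 for Mvd, the mevalonate diphosphate decarboxylase that makes its substrate (adjusted p = 0.37), and -0.22 ± 0.19 for Fdps, which uses its product (adjusted p = 0.64). The 4 regulators were likewise not called: Srebf2 gave -0.07 ± 0.10, Scap 0.02 ± 0.09, Insig1 -0.30 ± 0.13 and Insig2 -0.01 ± 0.09 (adjusted p = 0.80, 0.95, 0.25 and 0.96).

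Some lipogenic members were unusually variable among kidney libraries, and Scd1, Fasn, Acly and Acaca peaked in libraries high in adipocyte transcripts. Scd1 had 203, 37.3 and 82.6 CPM in JQ1 treatment kidneys and 28.6, 32.6 and 32.0 CPM in JQ1 recovery kidneys, against 105, 60.2 and 263 CPM in vehicle kidneys of the treatment cohort and 40.3 CPM in the vehicle recovery kidney. The highest value of each 10-week group was in JQ1 treatment library 1 and vehicle treatment library 3, which also had the highest summed adipocyte markers of their groups (801 and 453 CPM). Fasn, fatty acid synthase, followed the same order with 115, 59.3 and 77.4 CPM in JQ1 treatment, 35.7, 40.0 and 33.4 CPM in JQ1 recovery, 95.2, 40.0 and 143 CPM in vehicle treatment and 42.2 CPM in vehicle recovery. Acly, ATP citrate lyase, and Acaca, the cytosolic acetyl-CoA carboxylase, also peaked in both of those libraries. The other tested members did not peak in both. How many of all genes did so was not counted, so this order cannot be read as a trait of the branch. The standard errors were larger for Scd1 and Fasn, at 0.77 and 0.49 against a median of 0.12 in the sterol branch. With JQ1 treatment library 1 and vehicle treatment library 3 left out together, chosen after the data were seen, 2.63% of all genes passed for kidney treatment. The member calls were again 2 sterol genes and 1 fatty acid gene. The part of adipocyte RNA in the values of these genes was not tested. Elovl6, the elongase that follows Fasn, did not keep to that order, at 25.0 CPM in JQ1 treatment library 2, where the adipocyte sum was 106 CPM.

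**Figure D2:**
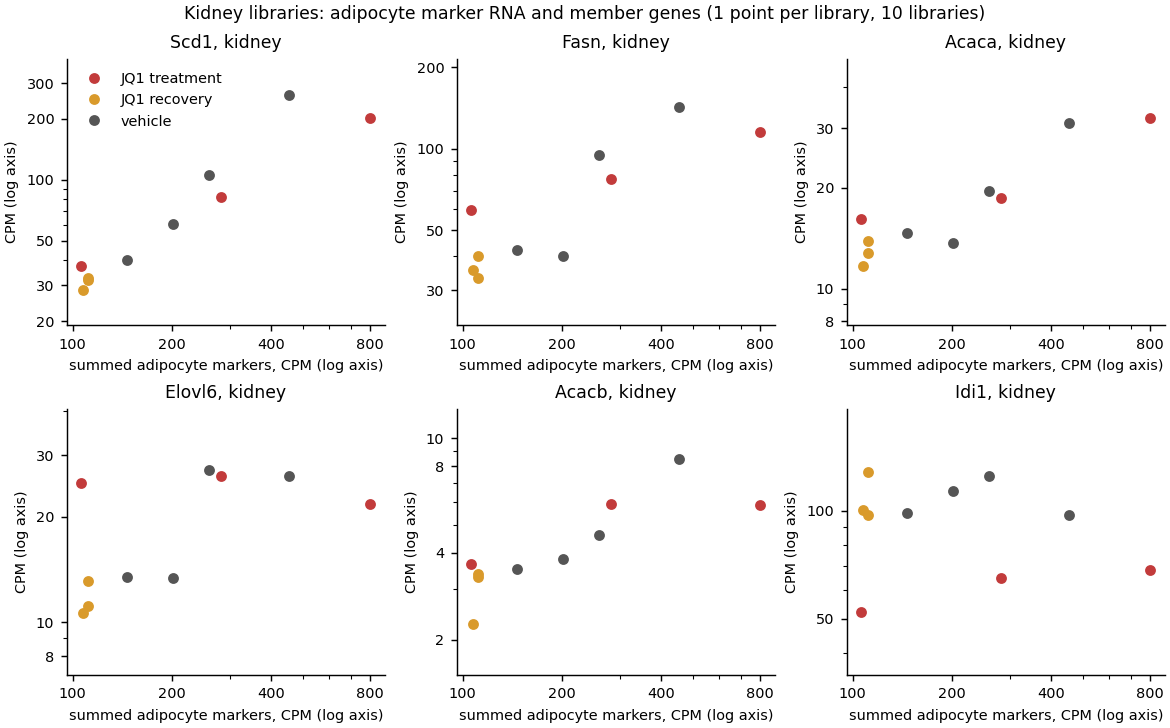
Kidney libraries, 1 point each (10 in all), with the summed CPM of 14 adipocyte markers on the x axis and the CPM of a member on the y axis, both log axes, coloured by JQ1 treatment, JQ1 recovery and vehicle. Scd1, Fasn and Acaca are highest at 453 and 801 CPM of adipocyte markers, and the 3 treated Idi1 points lie at 52.4 to 68.1 CPM.

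Genes outside the 36 but in the same pathways were also tested for JQ1 treatment against control in kidney, where 4.13% of all genes passed. Of tested genes of sterol transport, esterification and sensing 3 of 21 passed, and of fatty acid activation and lipid assembly 3 of 24. These lists were chosen with earlier results of these data known. Soat1, which esterifies cholesterol, had 75.2, 65.4 and 58.8 CPM in JQ1 treatment and 44.7 to 50.8 CPM in controls (0.49 ± 0.08, edgeR adjusted p = 0.0019). Npc2, a lysosomal cholesterol carrier, was also higher (0.31 ± 0.08, adjusted p = 0.0296), and Nr1h3, the sterol receptor LXR alpha, was lower (-0.57 ± 0.13, adjusted p = 0.0128). Aacs, which activates acetoacetate in the cytosol, had 104, 76.6 and 95.6 CPM in JQ1 treatment and 43.1 to 64.3 CPM in controls (0.79 ± 0.16, adjusted p = 0.0243). Acsl1, a long-chain acyl-CoA synthetase, and Elovl2, an elongase of polyunsaturated fatty acids, were higher by 0.38 ± 0.08 and 0.54 ± 0.14 (adjusted p = 0.0107 and 0.0388).

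In liver, JQ1 treatment against control gave 1 call, and it was again Acat2. No fatty acid gene passed by edgeR, with 3 of 12 at an unadjusted p below 0.05 (9.53% of all genes) and 1, Acss2, called by DESeq2 (2% of all genes). Over all 14559 genes tested in liver 0.495% were called, 0.268% higher and 0.227% lower. Acat2 had 71.3, 76.2 and 75.5 CPM in JQ1 treatment livers and 47.5, 44.6 and 44.5 CPM in JQ1 recovery livers, against 54.7, 54.1 and 53.6 CPM in vehicle livers of the treatment cohort and 51.0 CPM in the vehicle recovery liver. The 3 treated livers lay above the other 7, and controls spanned only 51.0 to 54.7 CPM. The log2 change was 0.48 ± 0.09 (SE, edgeR adjusted p = 0.0296, higher in 3 of 3 libraries), a fold of 1.39.

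This call was at the edge of the threshold. Its direction was kept in every fit, but it was lost in all 7 fits that left out 1 library of the compared groups (adjusted p up to 0.23), and kept in 4 of 8 other settings. In liver Acat3 was more abundant than in kidney, at 162, 179 and 191 CPM in JQ1 treatment livers and 179 to 198 CPM in control livers, with a log2 change of -0.09 ± 0.15 (adjusted p = 0.92). Tcp1, on the opposite strand in the same cluster, gave 0.05 ± 0.10 (adjusted p = 0.94).

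Acss2, the cytosolic synthetase that makes acetyl-CoA from acetate, came next. It had 121, 158 and 127 CPM in JQ1 treatment livers and 69.7, 55.9 and 49.7 CPM in JQ1 recovery livers, against 78.5, 99.1 and 78.5 CPM in vehicle livers of the treatment cohort and 59.7 CPM in the vehicle recovery liver. Treated and control livers did not overlap, and the log2 change was 0.78 ± 0.16 (adjusted p = 0.0607). Srebf1 had 89.7, 69.2 and 82.6 CPM in JQ1 treatment livers, 81.2, 66.1 and 64.1 CPM in JQ1 recovery livers and 96.3 to 126 CPM in controls, a log2 change of -0.46 ± 0.13 without overlap (adjusted p = 0.16). Fasn had 153, 164 and 167 CPM in JQ1 treatment livers, 222, 186 and 186 CPM in JQ1 recovery livers and 169, 349 and 241 CPM in vehicle livers of the treatment cohort with 225 CPM in vehicle recovery. Its log2 change was -0.61 ± 0.19 (adjusted p = 0.27), and the control spread of Fasn was wide. Neither Srebf1 nor Fasn was called. With JQ1 recovery libraries 2 and 3 out of the fit, chosen after the data were seen, Acss2 and Srebf1 passed (edgeR adjusted p = 0.0364 and 0.0228). Acat2 and Lss passed there too, as did 2.3% of all genes, against 0.495% in the main fit.

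As a group, 17 of 23 sterol genes in liver lay above 0 (median log2 change 0.14) and 8 of 12 fatty acid genes did (median 0.06), against 50.3% of all genes and a median near 0. Of the hepatocyte markers 9 of 12 also lay above 0 (median 0.29, none called by edgeR, 2 at an unadjusted p below 0.05), with sums of 91250 to 104800 CPM in JQ1 treatment and 77190 to 84320 CPM in controls (without TMM), and their part in the branch medians was not tested. Groups did not overlap for 5 sterol genes, all higher in JQ1 treatment (Acat2, Cyp51, Fdft1, Stard4 and Lss), and for 4 fatty acid genes, higher for Acss2 and Fads1 and lower for Srebf1 and Fasn, where 12.9% of all genes did not overlap. Lss, lanosterol synthase, had 31.4, 32.6 and 26.1 CPM in JQ1 treatment livers, 20.1, 8.37 and 13.6 CPM in JQ1 recovery livers and 17.95 to 23.95 CPM in controls (0.50 ± 0.23, adjusted p = 0.51). In TPM, Lss was not higher in JQ1 treatment livers, at 5.85 ± 2.95 (2.59 to 8.31) against 6.55 ± 0.998 (5.24 to 7.56) in controls (SD).

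**Figure D3:**
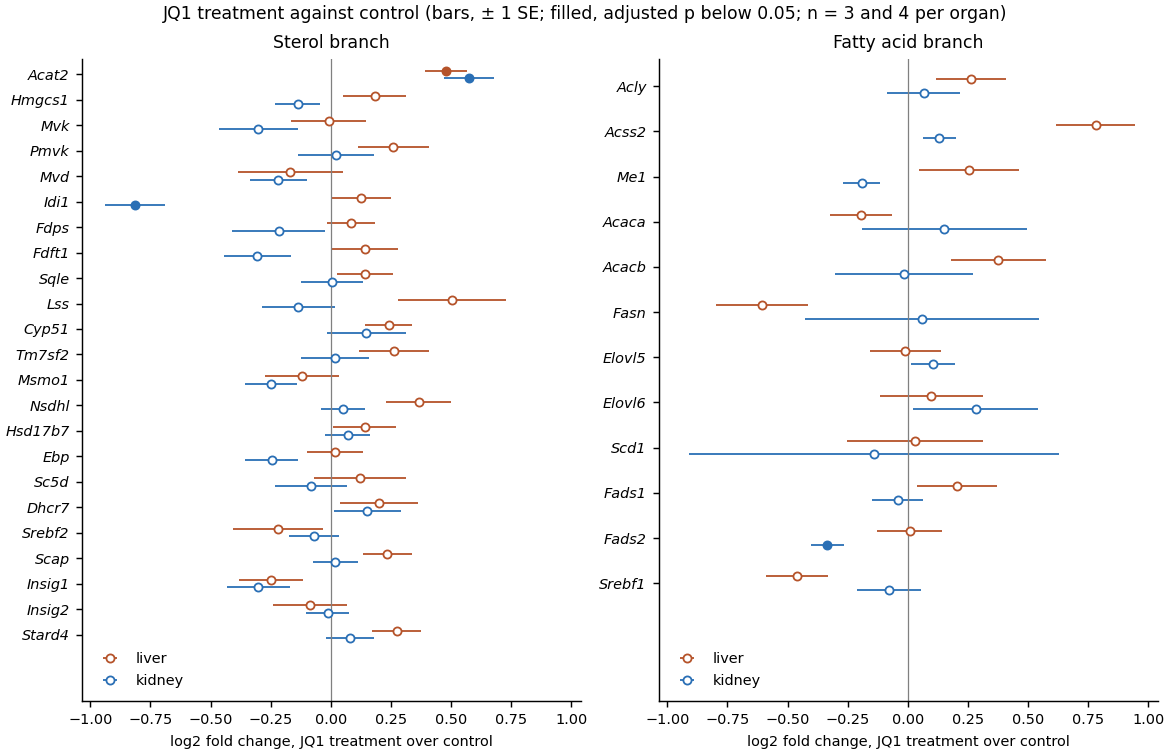
Log2 fold change of JQ1 treatment over control for each tested member in liver and kidney, with the sterol branch left and the fatty acid branch right, bars ± 1 SE, and filled points at an adjusted p below 0.05. Acat2 is filled in both organs (0.48 and 0.57), Idi1 (-0.81) and Fads2 (-0.34) in kidney alone, and Scd1 and Fasn have the widest bars in kidney.

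Whether the organs differed was tested as an interaction over all 20 libraries, as the liver effect minus the kidney effect. Over all 17710 genes 0.169% passed for JQ1 treatment, 0.136% above 0 and 0.0339% below. 1 of 35 members was among them. Idi1 had a difference of 0.93 ± 0.18 (SE, edgeR adjusted p = 0.0327). Its liver values were 237, 257 and 201 CPM in JQ1 treatment and 239, 192 and 193 CPM in JQ1 recovery, against 236, 219 and 211 CPM in vehicle treatment and 184 CPM in vehicle recovery, with a liver change of 0.12 ± 0.12 (adjusted p = 0.83). The liver groups overlapped where the kidney groups did not. The interaction was lost in 10 of 20 leave-one-out fits (adjusted p up to 0.15). Fads2 differed by 0.33 ± 0.16 (adjusted p = 0.63) and Acss2 by 0.64 ± 0.19 (adjusted p = 0.29), so neither was shown to differ between organs.

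JQ1 recovery against control asked which genes differed after the interval without dosing. In kidney no member passed by edgeR, where 0.00583% of all genes did. At an unadjusted p below 0.05 there were 4 sterol genes and 3 fatty acid genes, where 9.16% of all genes passed it, and DESeq2 called only Elovl6 among members and 0.635% of all genes. The 3 members called in treated kidneys gave 0.00 ± 0.12 for Idi1, 0.27 ± 0.11 for Acat2 and -0.01 ± 0.07 for Fads2 (adjusted p = 0.995, 0.44 and 0.99). Idi1 and Fads2 in JQ1 recovery overlapped their controls, and so did Acat2.

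The sterol genes with the lowest p were Mvd, Mvk and Acat2. Mvd had 21.03, 24.5 and 20.2 CPM in JQ1 recovery kidneys and 15.5, 15.8 and 18.1 CPM in vehicle kidneys of the treatment cohort with 18.8 CPM in the vehicle recovery kidney (0.36 ± 0.12, adjusted p = 0.34). Mvk, mevalonate kinase, had 9.76, 9.45 and 7.66 CPM in JQ1 recovery kidneys and 14.3, 11.6 and 13.9 CPM in the vehicle treatment kidneys with 8.98 CPM in the vehicle recovery kidney (-0.44 ± 0.17, adjusted p = 0.43). The recovery values of Mvk sat near the single control of the same age. In the fatty acid branch the lowest p belonged to Me1, Elovl6 and Acacb. Me1 had 467, 409.98 and 435 CPM in JQ1 recovery kidneys and 373, 318 and 365 CPM in vehicle treatment kidneys, with 404 CPM in the vehicle recovery kidney (0.26 ± 0.08, adjusted p = 0.29). Elovl6 had 10.6, 11.2 and 13.1 CPM in JQ1 recovery kidneys, against 27.1, 13.4 and 26.1 CPM in vehicle treatment and 13.5 CPM in vehicle recovery (-0.78 ± 0.28, adjusted p = 0.44). Acacb, the mitochondrial acetyl-CoA carboxylase, had 2.27, 3.31 and 3.37 CPM in JQ1 recovery kidneys, against 4.62, 3.81 and 8.44 CPM in vehicle treatment and 3.52 CPM in vehicle recovery (-0.78 ± 0.30, adjusted p = 0.44).

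JQ1 recovery did not overlap control for Mvd and Me1, which were higher, or for Elovl6, Acacb and Scd1, which were lower, where 10.5% of all genes did not overlap. For Mvd, Mvk, Me1, Elovl6 and Acacb the vehicle recovery kidney lay nearer to the JQ1 recovery values than the mean of the vehicle treatment kidneys did. Against that library alone, which is 1 control, no member was called and the sterol median became 0.12, with 16 genes above 0 and 7 below, where with all 4 controls it was -0.06 with 9 above and 14 below. The fatty acid median was -0.22 with all controls and -0.10 with the 16-week control. Age and recovery from JQ1 cannot be told apart for the comparison with 10-week controls. Without the vehicle recovery library, Fdps and Me1 were called, as were 1.41% of all genes, against 0.00583% in the main fit.

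In liver no member passed for JQ1 recovery either, where 0.0343% of all genes did, 0.0137% higher and 0.0206% lower. An unadjusted p below 0.05 was found for 7 sterol and 9 fatty acid genes, and DESeq2 called 1 sterol gene, Pmvk, and 4 fatty acid genes, Srebf1, Fads2, Elovl5 and Scd1. DESeq2 called 4.47% of all genes, and 16.7% were below 0.05 before adjustment. All 12 fatty acid genes and 20 of 23 sterol genes lay below 0, with medians of -0.46 and -0.22 against 0.02 over all genes. All 12 hepatocyte markers also lay below 0, with a median of -0.54, and their sums were 69910, 38980 and 64480 CPM in JQ1 recovery libraries 1, 2 and 3 and 77190 to 84320 CPM in controls (without TMM). Their part in the branch medians was not tested. The size of these medians depended on the libraries that held kidney RNA. With recovery libraries 2 and 3 left out, which leaves 1 recovery library whose spread is taken from the other groups, the sterol median was 0.02 with 13 genes above 0 and 10 below, and the fatty acid median was -0.26 with 12 of 12 below 0. For JQ1 recovery against control in that fit, counts of genes passing are not given, because the recovery group held 1 library. With recovery library 1 left out instead, 5 sterol and 9 fatty acid genes were called, as were 13.6% of all genes. Without TMM, which moved the median of all genes to 0.19, the medians over all 3 libraries were -0.05 and -0.32.

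Counted by library, recovery libraries 2 and 3 each had 18 of 23 sterol genes below all 4 controls, and recovery library 1 had 4 below and 6 above. For the fatty acid branch 10 of 12 were below in each of libraries 2 and 3 and 4 of 12 in library 1. Over all genes 30.4%, 22% and 20.8% lay below all controls in libraries 2, 3 and 1. Srebf1 had the lowest p, at 81.2, 66.1 and 64.1 CPM in JQ1 recovery livers against 96.3 to 126 CPM in controls, and each recovery library lay below every control, including library 1. Its log2 change was -0.65 ± 0.13 (adjusted p = 0.12) with all 3 libraries and -0.45 ± 0.16 (adjusted p = 0.86) with library 1 alone. Elovl5 had 494, 290 and 369 CPM in JQ1 recovery livers and 565 to 623 CPM in controls (-0.64 ± 0.15, adjusted p = 0.13, and -0.28 ± 0.12 with library 1 alone). Scd1 had 1089, 628 and 538 CPM in JQ1 recovery livers against 961, 2060, 1732 and 1722 CPM in controls (-1.11 ± 0.29, adjusted p = 0.13, and -0.58 ± 0.43 with library 1 alone). In the sterol branch Pmvk, phosphomevalonate kinase, had 32.7, 21.6 and 28.8 CPM in JQ1 recovery livers and 34.1 to 47.8 CPM in controls (-0.57 ± 0.15, adjusted p = 0.13, and -0.34 ± 0.17 with library 1 alone). Insig1 gave -0.40 ± 0.13 with all 3 libraries and -0.19 ± 0.16 with library 1 alone.

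**Figure D4:**
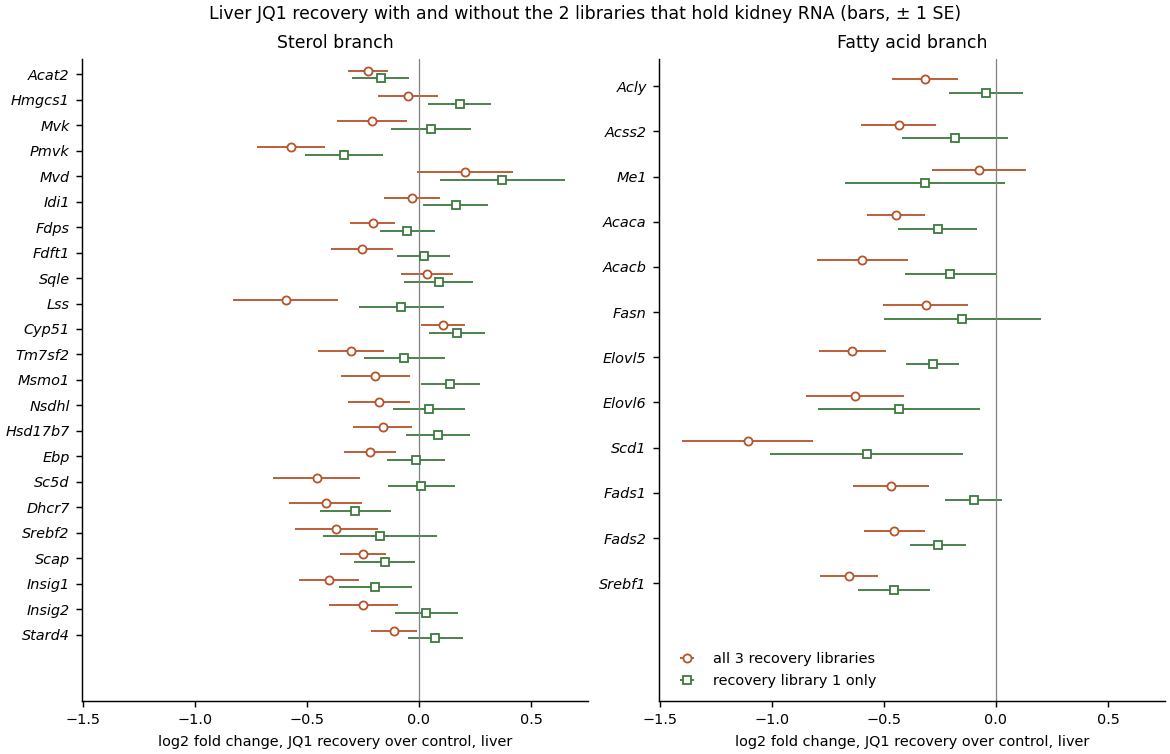
Log2 fold change of JQ1 recovery over control in liver, with bars ± 1 SE, for all 3 recovery libraries (circles) and for recovery library 1 alone (squares), the sterol branch left and the fatty acid branch right. The squares of the sterol branch scatter around 0 (median 0.02), and the squares of the fatty acid branch lie left of 0 (median -0.26).

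The recovery interaction, liver minus kidney, called 1 of 35 members, where 4.29% of all genes passed, 3.75% above 0 and 0.531% below. It was Acat2, with a difference of -0.53 ± 0.14 (SE, edgeR adjusted p = 0.0382), from a liver change of -0.23 ± 0.09 and a kidney change of 0.27 ± 0.11, neither of them called. Without liver recovery libraries 2 and 3 the difference was -0.47 and was not called (adjusted p = 0.48), and the call was also lost in 13 of 20 leave-one-out fits and kept in 1 of 7 other settings.

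JQ1 treatment against JQ1 recovery set the groups of dosed mice beside each other. They also differ in age, 10 and 16 weeks, so that time after dosing and age cannot be told apart. In kidney 2 sterol genes and 2 fatty acid genes passed, all 4 lower in JQ1 treatment, where 7.31% of all genes passed, 2.41% higher and 4.91% lower. Idi1 (-0.82 ± 0.13, adjusted p = 0.00194) and Fads2 (-0.33 ± 0.07, adjusted p = 0.00953) are given above with their values. Mvd had 12.7, 15.7 and 15.5 CPM in JQ1 treatment and 21.03, 24.5 and 20.2 CPM in JQ1 recovery, without overlap (-0.58 ± 0.12, adjusted p = 0.00747). Me1 had 311, 324 and 324 CPM in JQ1 treatment and 467, 409.98 and 435 CPM in JQ1 recovery (-0.45 ± 0.08, adjusted p = 0.00222). The vehicle kidneys of Me1 were ordered by age in the same way, 318 to 373 CPM at 10 weeks and 404 CPM in the single library at 16 weeks. Mvd was lost without JQ1 recovery library 2 (adjusted p = 0.0587) and Fads2 without JQ1 recovery library 1 (adjusted p = 0.0622). Of the genes outside the 36, 5 of 21 and 4 of 24 passed in this comparison, with Soat1 higher by 0.50 ± 0.09 and Nr1h3 at -0.88 ± 0.13 in JQ1 treatment relative to JQ1 recovery.

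In liver 4 sterol and 2 fatty acid genes passed, all higher in JQ1 treatment, where 2.29% of all genes passed, 1.31% higher and 0.989% lower. They were Acat2 (0.71 ± 0.09, adjusted p = 0.00492), Pmvk (0.83 ± 0.16, adjusted p = 0.0204), Lss (1.098 ± 0.25, adjusted p = 0.0424), Scap (0.48 ± 0.11, adjusted p = 0.0347), Acss2 (1.22 ± 0.18, adjusted p = 0.00877) and Acacb (0.97 ± 0.22, adjusted p = 0.0367). Pmvk had 51.6, 52.5 and 43.6 CPM in JQ1 treatment livers and 32.7, 21.6 and 28.8 CPM in JQ1 recovery livers. Scap, the SREBP escort, had 72.7, 88.8 and 76.8 CPM in JQ1 treatment livers and 60.9, 57.2 and 52.3 CPM in JQ1 recovery livers. Acacb had 27.5, 25.4 and 27.6 CPM in JQ1 treatment livers and 17.999, 8.91 and 14.1 CPM in JQ1 recovery livers. None of the 6 genes overlapped between groups, and neither did 21.2% of all genes. Hepatocyte markers were again on the same side, with 11 of 12 above 0 and a median of 0.76.

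Of these 6, only Acat2 passed with recovery libraries 2 and 3 left out, at an adjusted p of 0.0213. The others then gave 0.59 for Pmvk, 0.57 for Lss, 0.38 for Scap, 0.95 for Acss2 and 0.57 for Acacb (adjusted p = 0.17, 0.26, 0.32, 0.17 and 0.30). Acat2 also passed in all 6 leave-one-out fits and in all 7 other settings. For Lss, whose reads were divided among 8 annotated transcripts, counts scaled by transcript length gave 0.08 (adjusted p = 0.92) in place of 1.098. None of the genes outside the 36 passed in liver for JQ1 treatment against control, by edgeR, out of 23 and 25 tested, with 2 and 7 at an unadjusted p below 0.05. Against JQ1 recovery, 2 of 23 and 1 of 25 passed by edgeR, where 2.29% of all genes did. Abcg5 and Abcg8, which together form the sterol exporter, were higher by 1.17 ± 0.28 and 0.999 ± 0.21 (adjusted p = 0.042 and 0.029). Acsl5, an acyl-CoA synthetase, was higher by 1.004 ± 0.15 (adjusted p = 0.0079). These values include recovery libraries 2 and 3, which hold kidney RNA, and their size without those libraries is not given. Over the branches, 22 of 23 sterol genes and 11 of 12 fatty acid genes lay above 0 (medians 0.29 and 0.60), and without those libraries 15 and 10 did (medians 0.06 and 0.29), against medians of -0.02 and 0.00 over all genes.

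**Figure D5:**
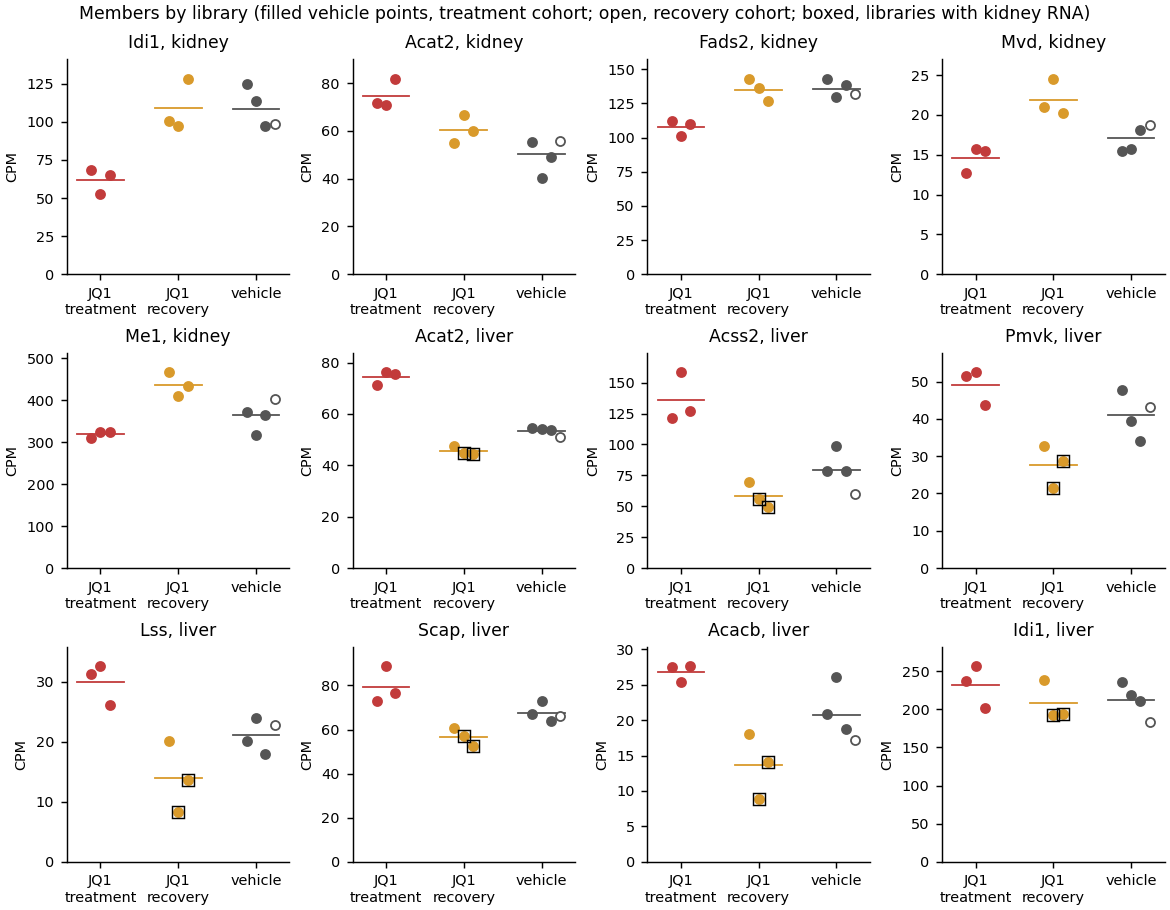
CPM of called members in every library, with JQ1 treatment left, JQ1 recovery in the middle and vehicle right; lines are group means, the open vehicle point is the recovery cohort, and boxes mark liver recovery libraries 2 and 3. In kidney the 3 treated Idi1 points (52.4 to 68.1 CPM) lie below the 7 others, and in both organs the treated Acat2 points lie above them.

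Spread within groups is given as a coefficient of variation. In kidney the median coefficient of variation over the sterol genes was 10.3% in JQ1 treatment, 7.30% in JQ1 recovery and 12.5% in controls, and over the fatty acid genes 11%, 7.61% and 17.99%. In liver the sterol medians were 9.93%, 16.8% and 9.66% and the fatty acid medians 7.81%, 19.7% and 17.2%. Within liver the recovery group, with kidney RNA in 2 of its 3 libraries, had the largest median in both branches.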

How the data were processed

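Deposited per-library tables gave an estimated count and a TPM value per transcript, which the authors made by trimming with fastp 0.20.1 and quantifying against the mm10 transcriptome with Salmon 1.10.0. Here estimated counts were summed per gene (147833 transcripts, 55642 genes), rounded to whole numbers and tested with edgeR 4.0.16 in R 4.3.3, per organ over the 3 conditions, with TMM scaling, a minimum count of 10 (total 15), robust quasi-likelihood fits and Benjamini-Hochberg adjustment over all tested genes. Organ differences used all 20 libraries in 1 fit. TPM values served for levels between genes. The design departs from the study's methods, which used DESeq2 on length-scaled counts. Alternatives were edgeR on length-scaled counts and, separately, DESeq2 1.42.0 on the summed counts. DESeq2 on length-scaled counts was not run. Other alternatives were library-size scaling, no filter, only the groups compared, controls of the same age, a replicate block and leaving out libraries. The fit was tested on simulated data. Members and lists were chosen with earlier results of these data known. Full values are given for members called in any comparison within an organ, otherwise for the 3 with the lowest p per branch, and for called genes of the other lists; others named were picked after their values were seen. Promoters came from RefSeq (GRCm38.p6).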

Additional observations from a re-analysis of the deposited data

Results flagged for a closer look

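In 70 groups of 4 control libraries (35 members in each organ), a single library stood far from the others in 3, about as many as the 5% that chance gives. In kidney, Sc5d had 11.97 CPM in the vehicle recovery library and 18.6 to 19.8 CPM in the vehicle treatment libraries, and Scap had 43.6 CPM in vehicle treatment library 2 and 52.8 to 54.9 CPM in the other controls. In liver, Mvd had 7.82 CPM in vehicle treatment library 1 and 14.3 to 15.6 CPM in the other controls.

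The test of an organ difference in the effect of JQ1 called 1 member for treatment (0.169% of all genes) and 1 for recovery (4.29% of all genes), and neither call held in every fit. For Idi1 the treatment effect in liver minus that in kidney was 0.93 ± 0.18 on the log2 scale (SE, edgeR adjusted p = 0.0327), lost in 10 of 20 leave-one-out fits. For Acat2 the recovery effect in liver minus that in kidney was -0.53 ± 0.14 (SE, edgeR adjusted p = 0.0382), lost in 13 of 20 leave-one-out fits, and this value includes the liver recovery libraries that hold kidney RNA.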

How the results depend on the processing

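Direction across the alternative runs was checked for called members and, in a branch without a call, for those with the lowest p. In the comparisons within organs and the organ difference in JQ1 effect, these members kept their direction in every run. Other named genes were not covered, and library-size scaling changed the sign of some sterol genes in kidney treatment against control. In control liver against control kidney, library-size scaling turned Mvd from called higher (0.43) to called lower (-0.42) and Nsdhl from called higher (0.79) to -0.06. Counts below are sterol, then fatty acid genes. For JQ1 treatment against control in kidney the counts were 2 and 1 in every setting, where 2.33% to 6.07% of all genes passed. In kidney recovery against control, DESeq2 gave 1 fatty acid gene (0.635% of all genes). Kidney treatment against recovery without the filter gave 4 sterol genes (6.07% of all genes).

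In liver treatment against control (1 and 0), the sterol count was 0 with length-scaled counts, library-size scaling, controls of the same age and the block, and 2 with only the groups compared and without recovery libraries 2 and 3; the fatty acid count was 1 with DESeq2 or no filter and 2 with only the groups compared and without those libraries. In liver recovery against control (0 and 0, 0.0343% of all genes), DESeq2 gave 1 and 4 (4.47%), and no filter 1 and 3 (0.84%). In liver treatment against recovery (4 and 2), length-scaled counts gave 2 and 1, DESeq2 8 and 8, only the groups compared 1 and 1, leaving out libraries 2 and 3 gave 1 and 0, and no filter gave 6 and 5. The organ difference in treatment (1 member, 0.169% of all genes) was 0 with length-scaled counts (0.18%) and controls of the same age (0.0973%). That in recovery (1 member, 4.29%) was 0 with those (3.88% and 0.126%), library-size scaling (5.56%) and no filter (1.34%). Shares of all genes called shifted as well. In liver treatment against control they were 0.245% (length-scaled counts), 0.714% (library-size scaling), 0.235% (controls of the same age) and 0.282% (block). DESeq2, no filter and only the groups compared gave 2%, 0.476% and 2.66%, against 0.495% in the main fit. In liver treatment against recovery they were 1.11% (length-scaled counts), 7.95% (DESeq2), 0.237% (only the groups compared) and 2.26% (no filter), against 2.29% (main). The cause of these shifts was not tested.

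Leaving out 1 library gave, in kidney, 2 and 1 for treatment, 0 to 1 and 0 to 1 for recovery, and 1 to 3 and 1 to 3 for treatment against recovery. Over all genes the kidney shares were 2.33% to 4.29%, 0% to 1.41% and 3.83% to 8.98%. In liver the ranges were 0 to 1 and 0 to 1, 0 to 5 and 0 to 9, and 1 to 12 and 0 to 7. The liver shares of all genes were 0.0965% to 1.82%, 0% to 13.6% and 0.109% to 13.9%. The organ differences ranged from 0 to 1 (treatment) and from 0 to 6 (recovery), and control organs from 32 to 34. Their shares of all genes were 0.0655% to 0.438%, 0% to 12.2% and 58.9% to 61.8%.

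Deviations of same-numbered libraries from their group means correlated at -0.132 to 0.102 in kidney and -0.0609 to 0.00214 in liver, across conditions. Between organs within a condition the range was -0.0673 to 0.0404, and each range covers 9 pairs. Values near 0 from groups of 3 cannot tell whether a number marks the same mouse. With number as a replicate block, liver treatment gave 0 and 0 (0.282% of all genes) and liver treatment against recovery 3 and 1 (1.52%). Both organ differences then gave 0 members (0.0169% and 0% of all genes).

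Limits are 3 libraries per JQ1 group, 1 control of 16 weeks per organ, and low counts, the lowest tested member being Acacb in kidney at 2.27 to 8.44 CPM.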
